A study of Homo sapiens with 4 samples.

Results

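The regions described here are 8403 H3K14ac peaks of the control library that lie in 8 centromeric spans of hg38. Each is a row of the control list that overlaps one of the spans by 1 bp or more, and together they make up 21.1% (exact 95% interval 20.7 to 21.5) of the 39876 regions in that list. The spans lie on chromosomes 18, 19, 12, 20, 10, 2, 11 and 17, measure 28.8 Mb in all and hold 0 of the genes in the RefSeq table. Each is the longest stretch without a gene on its chromosome. Membership was set by position alone. That these spans hold alpha satellite is taken from their label, since the sequence of the spans was not used here.

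Alpha satellite is the tandem repeat of human centromeres. Its short monomers are arranged head to tail, and in many arrays a fixed series of monomers recurs as a higher-order unit. Part of each array carries the centromeric histone CENP-A and the kinetochore, while the flanking satellite is usually packed as heterochromatin with little histone acetylation. In hg38 the arrays are modelled sequences and do not record the order of repeats on any one chromosome, and some arrays are near copies of each other, so a short read can fit many places. H3K14ac, acetylation of lysine 14 of histone H3, is otherwise known from active promoters and is written by complexes such as HBO1 and SAGA.

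The mark was mapped by chromatin immunoprecipitation and sequencing (ChIP-seq) in MKN45, a gastric cancer cell line. Control cells carried the hairpin shNT, and knockdown cells the hairpin shNIT2 against NIT2, an omega-amidase (whether either was a single clone is not stated in the sources used here). Each hairpin had 1 H3K14ac library and 1 input library, and a peak list of each H3K14ac library was used. With 1 library per hairpin no difference between them has a replicate check, and regions of 1 library are not replicates, so no test was made. Read totals are unknown. By values solved from the peak caller's output, the median summit held 6 fragments in the control list against 22 in the knockdown list, and the lowest background was 0.278 fragments against 2.48.

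The regions formed dense blocks, and 4 chromosomes held most of them. Chromosome 18 (15330264 to 20946905) had 2757 regions, which were 86.8% of all control regions on that chromosome. Chromosome 19 (24179012 to 27681071) had 1366 regions or 66.5% of its control regions, chromosome 12 (34250266 to 37575342) had 1276 or 55.8%, and chromosome 20 (26251589 to 28580632) had 1218 or 71.2%. These 4 spans held 78.7% of the members. Fewer lay on chromosome 2 (92035128 to 94192530, 739 regions), chromosome 10 (38719383 to 42149318, 589 regions) and chromosome 11 (50420632 to 54591479, 408 regions). Chromosome 17 (22705637 to 26981691) had 50, or 5.35% of its control regions. Per Mb of span the counts were 523 on chromosome 20, 491 on 18, 390 on 19, 384 on 12, 343 on 2, 172 on 10, 97.8 on 11 and 11.7 on 17.

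Within several of the blocks the density varied little. A block was defined as the longest run of summits no more than 50 kb apart, a limit chosen after seeing the data, and the 8 blocks held 8282 of the members (98.6%) in 19.2 Mb. On chromosome 19 the block ran from 24891678 to 27189613 with 58.6 ± 4.15 regions per 100 kb (SD over 22 windows), between 48 and 65. The variance of these counts was 0.293 of their mean. Independently placed points give a ratio near 1, but regions cannot overlap and here lay at least 235 bp apart. Such spacing lowers the ratio by itself, and the size of its part in the low value was not tested. The ratio was 0.809 on chromosome 20, 0.967 on 2, 1.01 on 11 and 1.20 on 12, and higher on 17 (1.78), 10 (2.89) and 18 (3.46). Chromosome 20 had 57.4 ± 6.82 per 100 kb (21 windows), chromosome 18 had 52.7 ± 13.5 (52 windows, sparse ends included) and chromosome 12 had 52.04 ± 7.92 (24 windows). The fullest window of the block held 65 regions on chromosome 18, 65 on 19, 63 on 12 and 70 on 20. Chromosome 2 had 38.3 ± 6.09 (18 windows) and chromosome 11 had 12.4 ± 3.55 (32 windows), both also spread over most of the span. On chromosome 10 the block covered 48.2% of the span and its windows varied from 15 to 50 regions. Chromosome 17 went against the pattern: 33 of its 50 regions lay in a block of 0.354 Mb from 22821074 to 23175067, and 26 of 42 full windows of the span held 0.

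**Figure D1:**
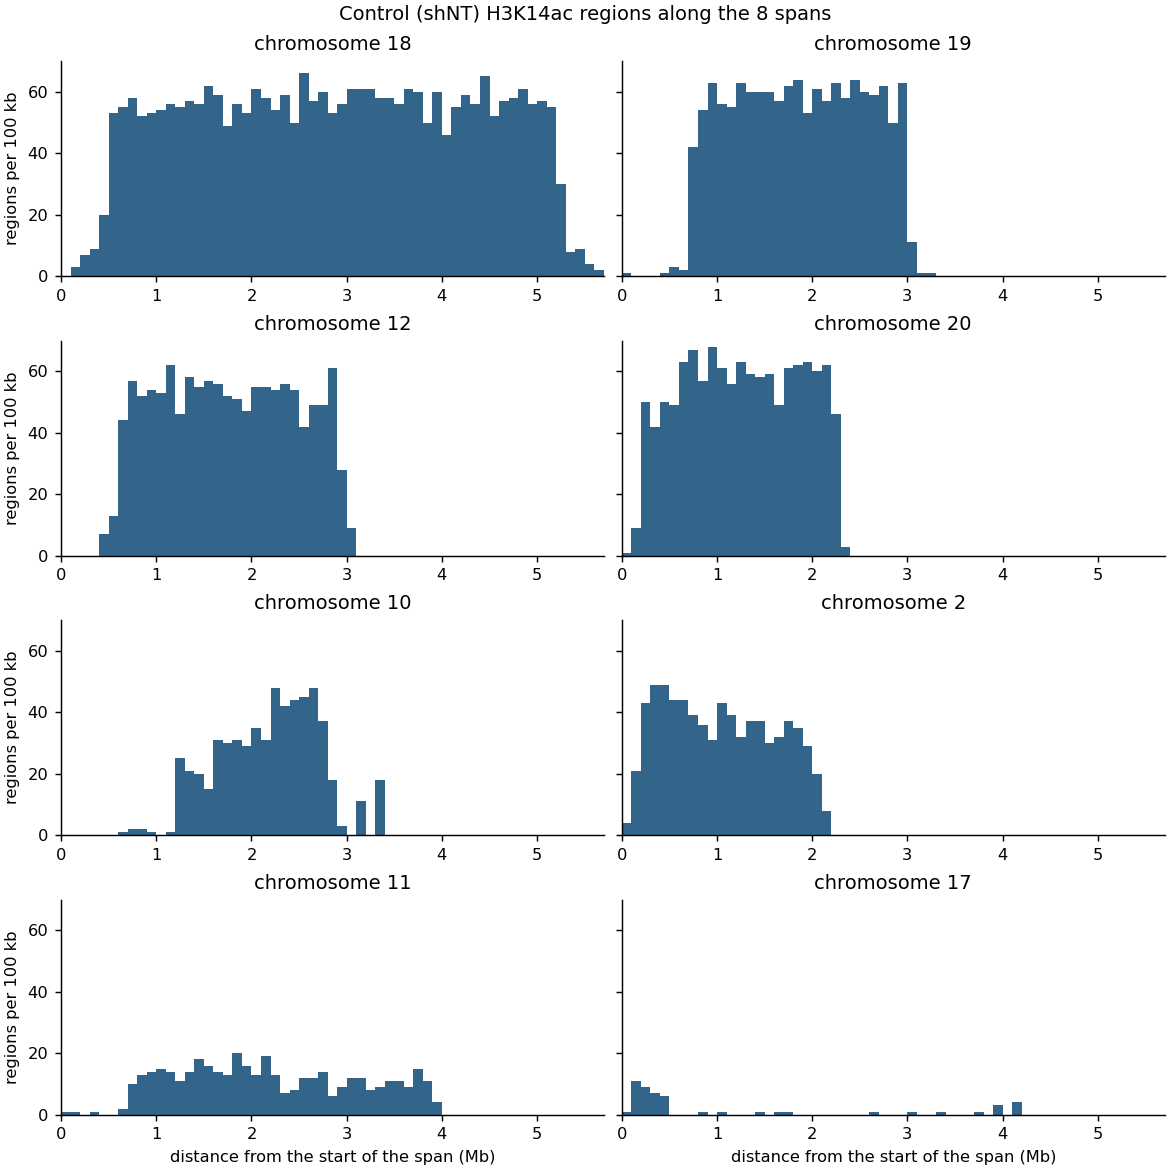
Control H3K14ac regions per 100 kb (bars) against distance from the start of each span in Mb, for the 8 spans. Chromosomes 18, 19, 12 and 20 rise to at most 62 to 68 regions per window, counted from the span start, chromosomes 10, 2 and 11 stay lower, and 26 of 42 full windows on chromosome 17 are empty.

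The longest voids inside the spans were taken between summits or from a span end to the nearest summit. Each exceeded the 50 kb limit and so lay outside the block by definition. Between summits they measured 911 kb on chromosome 17 (24446162 to 25357273), 447 kb on chromosome 19 (24199001 to 24646309), 281 kb on chromosome 11 (50816675 to 51097893) and 77.9 kb on chromosome 20. On the other 4 the longest void ran from the start of the span to its first summit, with 615 kb on chromosome 10, 432 kb on chromosome 12, 149 kb on chromosome 18 and 67.1 kb on chromosome 2. No member crossed a span end: 0 of 8403 did. Just inside the ends, the first and last regions of chromosome 11 rested on 3 fragments each (3.13-fold), whereas the last region of chromosome 18 (20937878 to 20940314) rested on 62 (15.4-fold). Outside, the nearest control regions rested on 3 to 6 fragments in 14 of the 16 cases. They lay between 4447 bp (before the chromosome 20 span) and 727391 bp (after the chromosome 19 span) from the span end. The nearest after the chromosome 20 span was stronger, with 52 fragments (7.81-fold), and that after the chromosome 2 span had 15 fragments (9.96-fold).

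The knockdown list had no region in any of the 8 spans. This was 0 of 28187 regions, which allows a share of up to 0.0106%, a limit for counting error only. Of all control regions, 9.06% were overlapped by a knockdown region. Of the members, 0% were (exact 95% interval 0 to 0.0439), and outside the longest gene-free stretch of every chromosome the share was 16.7%. This was not particular to the 8 spans: in the longest gene-free stretches of the other 16 chromosomes, 2 of 9810 control regions (0.0204%) were overlapped, and the knockdown list had 3 regions there. The knockdown list was not empty on these chromosomes, where it had between 621 regions (chromosome 18) and 2423 (chromosome 2). It also had regions within 1 Mb of most spans. The 16 flanks of 1 Mb held 63 knockdown regions and 90 control regions, or 3.94 and 5.63 per Mb, while the control list had 292 per Mb inside. The knockdown regions were unevenly spread, with 19 after the chromosome 18 span, 16 after 17, 13 before 20 and 0 on either side of 11.

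The nearest knockdown regions lay 103514 bp before the chromosome 19 span and 111498 bp after it. The region after it was weak, with 12 fragments at 3.10-fold. After the chromosome 18 span, which ends at ROCK1, a kinase of the actin cytoskeleton, the nearest knockdown region (21110917 to 21111706) lay 164012 bp away with 47 fragments at 7.12-fold. The 1 Mb after that span held 19 knockdown and 12 control regions. ROCK1 is the only protein-coding gene that borders a span. The other borders are pseudogenes and long noncoding RNAs, among them CHEK2P5 and KSR1P1 on chromosome 10 and AK6P1 and ZNF970P on chromosome 12. On chromosome 11 the nearest knockdown regions were 2309978 bp before and 2250213 bp after, and on chromosome 2 the nearest before was 3407847 bp away. The peak lists hold only regions past the threshold, so coverage below it in the knockdown library was not analysed here. The part of the unequal pileups and backgrounds of the 2 lists in this difference was not tested.

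**Figure D2:**
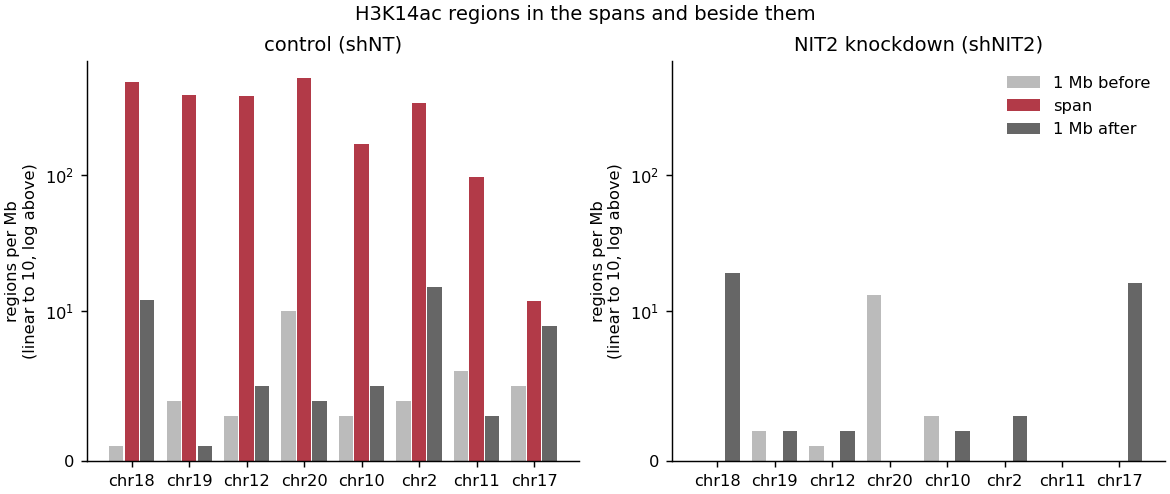
H3K14ac regions per Mb (linear to 10, logarithmic above) in each span and in the 1 Mb before and after it, for the control list (left) and the knockdown list (right). Control bars rise inside each span, least on chromosome 17 (11.7 per Mb), while the knockdown list has 0 regions in every span and up to 19 in a flank.

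Members were wider than control regions elsewhere. Their median width was 504 bp (quartiles 347 and 804), against 314 bp (266 and 406) for the 21663 control regions outside the longest gene-free stretches. Regions over 1 kb made up 16.3% of the members and 1.21% of the regions elsewhere. By chromosome the median width was 590 bp on 20, 542 on 10, 539 on 18, 527 on 12, 512 on 19, 393 on 2, 349.5 on 11 and 290.5 on 17. The last value lies below the median elsewhere. The widest member was 4240 bp, on chromosome 18 (17072343 to 17076582), yet its summit rested on 13 fragments (8.16-fold). Chromosome 20 had one nearly as wide, 4236 bp (28494654 to 28498889), at 21.9-fold and a −log10 q of 477. The widest on chromosome 19 was 4063 bp (24922472 to 24926534) with 71 fragments, and on chromosome 10 it was 3907 bp (40598518 to 40602424) with 28. Together the members covered 5501 kb, which is 19.1% of the spans and 28.1% of the length covered by the whole control list. The share of the span covered ran from 40.4% on chromosome 20 and 33.04% on chromosome 18 to 3.95% on chromosome 11 and 0.390% on chromosome 17.

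Neighbouring summits were most often 1 to 2 kb apart in the densest spans. The median distance was 1427 bp on chromosome 19 (quartiles 1038 and 2124), 1492 on 20, 1569.5 on 18 and 1582 on 12. It was 2008 bp on chromosome 10, 2170.5 on 2, 6130 on 11 and 11734 on 17. Distances of 1 to 2 kb made up 44.9% to 47.6% of all distances on chromosomes 18, 19, 12 and 20, and 9.09% on chromosome 11. No 2 neighbours were closer than 235 bp from end to start in any span, while the narrowest members were 234 bp wide. The smallest gap and the smallest width thus nearly coincide in the authors' list, and the gap sets a lower limit on summit distances, of which the shortest was 375 bp.

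Signal at the members was stronger than at control regions elsewhere, with the highest median on chromosome 19. The fold used here is the authors' own value per peak, the pileup at the summit over the local background, with 1 added to each. Its median was 6.21 over all members (quartiles 4.86 and 8.09) and 4.25 elsewhere. A fold of at least 5 was reached by 46.9% of the whole control list and by 72.0% of the members, and a −log10 q of at least 10 by 13.9% and 27.3%. By chromosome the median fold was 8.96 on 19, 6.87 on 20, 6.77 on 12, 6.70 on 10, 5.60 on 18, 5.40 on 2, 4.19 on 11 and 4.01 on 17. The medians on chromosomes 11 and 17 were thus below that of the regions elsewhere. In the longest gene-free stretches of the other 16 chromosomes, which held 9810 control regions, the median fold was 5.77, the median width 475 bp and the median pileup 8, so values above those elsewhere were not particular to the members. Chromosome 18, with the most regions, had a −log10 q of at least 10 for 7.91% of them, and chromosome 19 for 61.6%.

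The fragments behind these values were few. The median summit held 9 fragments in the members (quartiles 7 and 15) and 5 elsewhere. Of the members, 14.1% rested on 5 or fewer, against 42.8% of the whole control list and 63.1% of the regions elsewhere. Medians were 17 fragments on chromosome 19, 15 on 20, 13 on 10, 11 on 12, 8 on 18, 8 on 2, and 5 on 11 and 17. On chromosome 11, 68.4% of the regions rested on 5 fragments or fewer. The local background was also higher in the members, with a median of 0.645 fragments against 0.325 elsewhere. Chromosome 20 had the highest median background (1.16) and chromosome 11 the lowest (0.284), close to the floor of 0.278 fragments. Pileup and width rose together (Spearman's rho 0.437 over 8402 members of 1 library). The median width was 339 bp at 5 fragments or fewer, 462 bp at 6 to 10, 619 bp at 11 to 20 and 800.5 bp at 21 to 50. It fell back to 607 bp among the 197 members above 50.

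**Figure D3:**
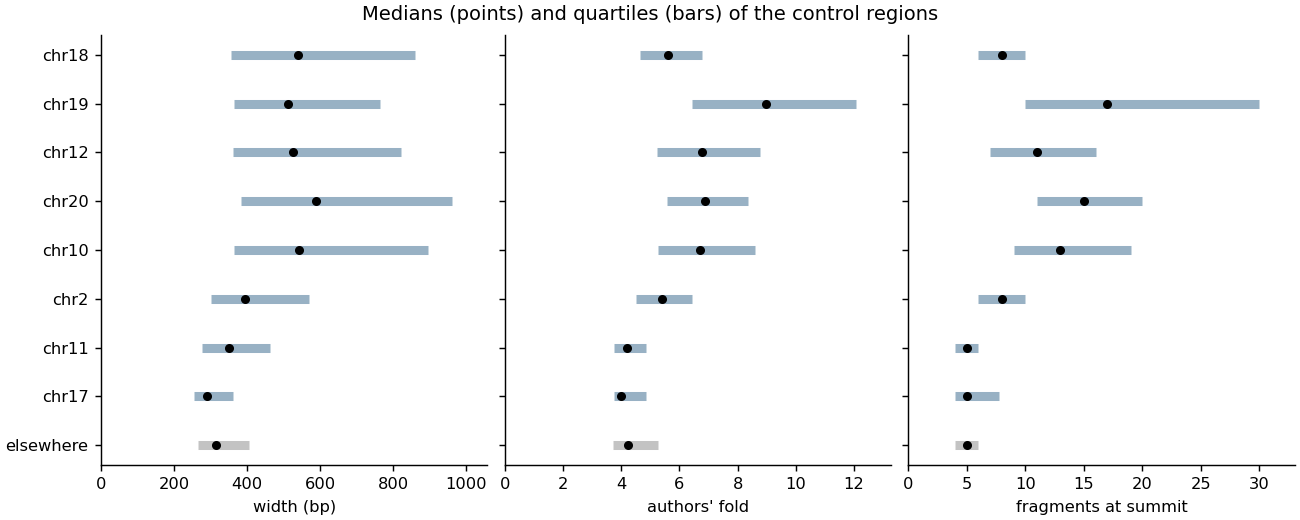
Medians (points) and quartiles (bars) of width in bp, the authors' fold and fragments at the summit, for the control regions of each span (blue) and for the 21663 control regions outside the longest gene-free stretches (grey, elsewhere). Chromosome 19 has the highest median fold (8.96) and pileup (17), and chromosomes 11 and 17 sit at the level of the regions elsewhere.

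Members above 30-fold lay in 5 of the spans, and the region with the highest fold in each span is given here. Other members held more fragments, up to 393 on chromosome 19 and 342 on chromosome 17. On chromosome 10 a region from 41839414 to 41840106 reached 51.2-fold on 84 fragments over a background of 0.661. It lay beyond the end of that span's block (41589593). On chromosome 12 the highest fold, 44.4 on 107 fragments (37248791 to 37249277), also lay past the end of the block (37184651). Chromosome 20 had 41.2-fold on 114 fragments (26600179 to 26600601), inside its block. Chromosome 18 had 31.7-fold on 251 fragments (20561533 to 20562766), and chromosome 19 had 30.9-fold on 64 (25625627 to 25626121). The highest values on chromosome 2 (13.8-fold, 93290881 to 93291449), chromosome 11 (8.61-fold, 54212942 to 54213314) and chromosome 17 (7.35-fold, 23148079 to 23148414) rested on 17, 10 and 9 fragments. The chromosome 17 span ended with a region of another kind, from 26885225 to 26885947, where 264 fragments stood over a background of 73.6, giving 3.55-fold.

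Ranked by fold, 29 of the 100 strongest control regions were members, 56 lay in the longest gene-free stretches of the other 16 chromosomes and 15 lay outside such stretches. Of all 39876 control regions, 8403 (21.1%) were members, 9810 lay in those other stretches and 21663 lay outside. Of the 29, 17 came from chromosome 19, 7 from 12, 2 from 20, 2 from 10 and 1 from 18. Among the 1000 strongest, 350 were members, 231 of them on chromosome 19 and 19 on chromosome 18. Among the 10 strongest, however, 3 were members, 1 each on chromosomes 12, 20 and 10, and 0 lay on chromosome 19.

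On chromosome 19 the summits recurred at a regular distance. When the separations of all pairs of summits from 1 to 20 kb apart were scanned for periods from 300 to 3000 bp, the strongest was 1024 bp. Within 100 bp of the first multiple, 1024 bp, there were 210 pairs, against 115 around 1536 bp, midway to the next. The contrast persisted with distance: 203 pairs lay around 4096 bp and 130 around 4608 bp, and 195 lay around 7168 bp and 125 around 7680 bp. Of 14558 pairs, 30.5% lay within an eighth of the period from a whole multiple, where separations without order give 25%. The share was 34.3% among the summits of the latter part of the span, split at the middle summit, and 26.7% among those of the former. Separations of 20 to 40 kb gave a best period of 1025 bp, and region starts in place of summits gave 1012 bp.

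In 5 of the 6 other spans with at least 100 regions the best period lay elsewhere and was weak. At 1024 bp the share near a multiple was 25.3% on chromosome 18 (28230 pairs), 24.6% on 12, 24.5% on 20, 25.2% on 10 and 25.1% on 2. On chromosome 11 it was 29.8% over 912 pairs, and the best period there was 1030 bp, at a power of 4.004. Region starts in place of summits gave 813 bp on chromosome 11. Its separations of 1 to 10, 10 to 20 and 20 to 40 kb gave 305, 1036 and 2781 bp. In the scan, the power of the best period was 125 on chromosome 19 and lay between 3.66 and 4.54 in these 6 spans. Separations without order average 1 at any single period, and the best of all periods scanned lies above that average even without order. Pairs share summits and come from 1 library, so the shares carry no interval.

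**Figure D4:**
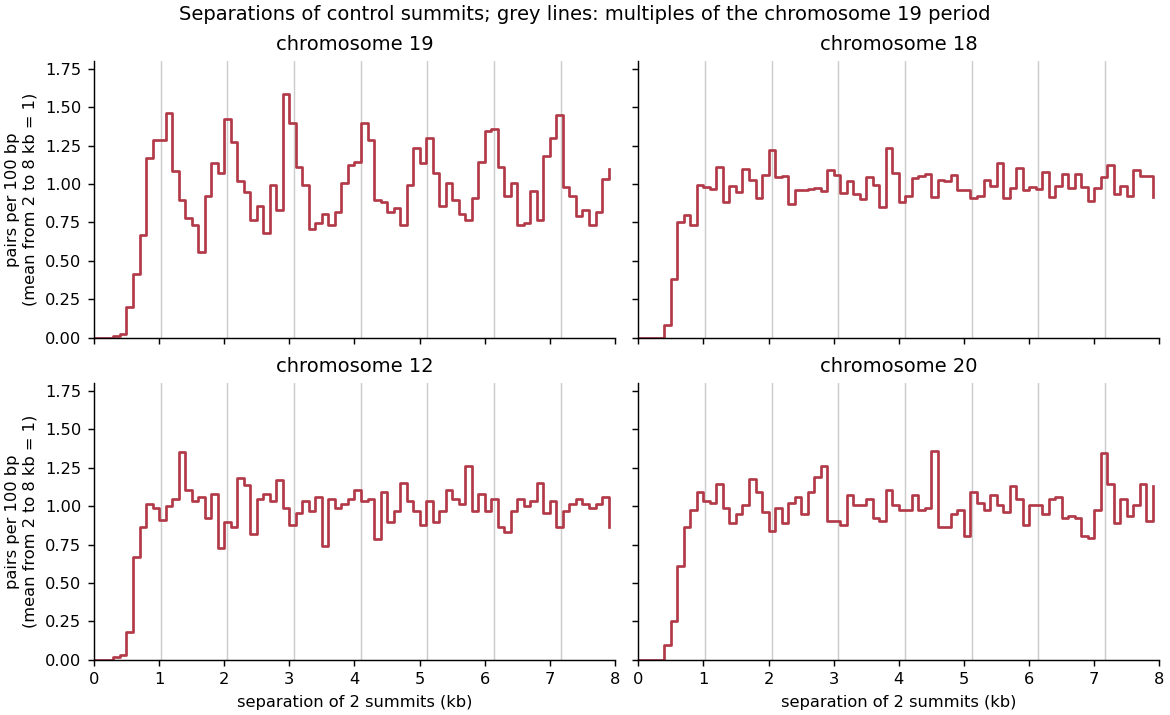
Number of summit pairs per 100 bp of separation, divided by its mean from 2 to 8 kb, against separation in kb for the spans on chromosomes 19, 18, 12 and 20; grey lines mark multiples of 1024 bp. Chromosome 19 peaks at each multiple, and the other 3 curves vary around 1 without that pattern.

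The regions of chromosome 19 recurred, in the same order and at the same distances, in the centromeric stretches of chromosomes 5 and 1. Those 3 chromosomes are known to carry a shared family of alpha satellite. When the chromosome 19 summits were all moved by 22400497 bp, 874 of 1366 (64.0%, exact 95% interval 61.4 to 66.5) fell within 50 bp of a summit on chromosome 5. Moved by 97594559 bp, 881 (64.5%, 61.9 to 67.04) fell within 50 bp of a summit on chromosome 1. These intervals cover counting error only, not the choice of shift or any dependence between neighbouring summits of 1 library. The shift was chosen as the one with most such matches. The same search was therefore made for all 136 pairs of the stretches with at least 400 regions, in both directions. The 3 pairs among chromosomes 1, 5 and 19 reached 61.1% to 64.5% of the smaller set, and the other 133 pairs between 4.90% and 12.5%. Between 2 of the spans described here the highest value was 12.3% over 21 pairs. Read in the opposite direction, no pair among chromosomes 1, 5 and 19 passed 9.27%.

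Heights matched as well as places. In the pairs of chromosomes 19 and 5, the median ratio of the pileups was 1 (quartiles 0.870 and 1.13), and their Spearman's rho was 0.947 over 874 pairs of summits. With chromosome 1 the median ratio was 1 (0.875 and 1.14) and rho 0.942 over 881 pairs. The fold agreed less closely (rho 0.752 and 0.760), and so did the width (0.675 and 0.673). At the best shift onto chromosomes 18, 12 and 20, rho of the pileups was 0.110, 0.0708 and -0.127. The median ratio there was 0.406, 0.690 and 1, the last with quartiles of 0.5 and 1.896, so a median ratio of 1 alone does not mark a shared pattern. The matches were close but not copies of a row: the median offset was 15 bp on chromosome 5 and 14 bp on chromosome 1, and 24 and 22 summits fell on the very same base. Matched summits of chromosome 19 were the taller, with a median of 21 fragments against 11 in the 492 without a match on chromosome 5. Of its 20 regions with the highest fold, 18 had a match on chromosome 5 and 18 on chromosome 1. A match on both was found for 704 of its regions, on at least 1 for 1051, and on neither for 315. Counted by overlap of regions at the same shifts, 1221 (89.4%) met a region on chromosome 5 and 1218 (89.2%) on chromosome 1. At the best shift onto chromosomes 12, 18 and 20, the overlapping share was 61.8%, 69.0% and 65.5%.

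Medians of the whole stretches were also alike. Chromosomes 19, 5 and 1 had 1366, 1413 and 1467 regions, a median pileup of 17 each, a median fold of 8.96, 8.98 and 8.76, and a median width of 512, 503 and 501 bp. The best period was 1019 bp on chromosome 5 and 1024 bp on chromosome 1. Because the patterns coincide, these are not separate observations of the period. The sources used here do not give the handling of reads that fit several places, so its part in the shared pattern was not tested, and signal of the 3 chromosomes cannot be told apart here.

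**Figure D5:**
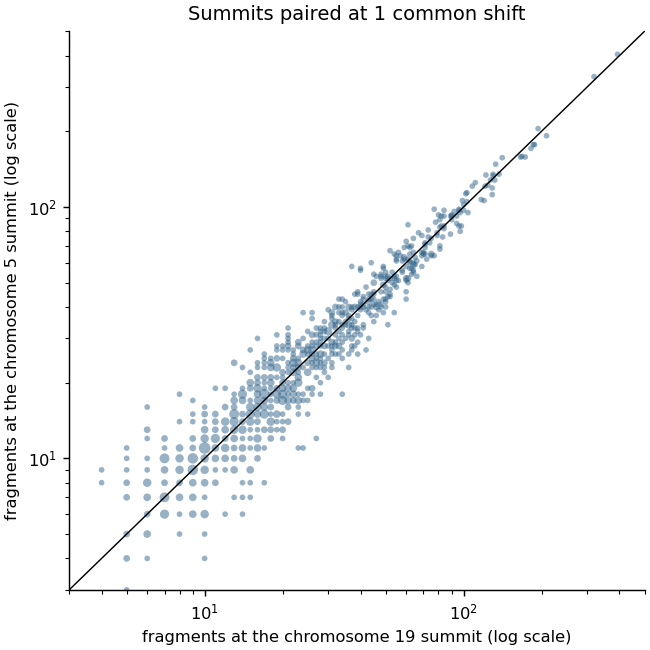
Fragments at the summit of chromosome 19 regions (horizontal, log scale) and of the chromosome 5 region within 50 bp after 1 common shift (vertical, log scale), for 874 pairs; larger points hold more pairs and the line marks equality. The points follow the line from under 10 to over 300 fragments.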

How the data were processed

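Per the labels' protocols, fixed chromatin was sonicated, immunoprecipitated and sequenced from 1 end of each fragment. The build hg38, the aligner Bowtie2 2.2.6, the peak caller MACS2 2.1.1, the trimmers Trimmomatic 0.35 and cutadapt 1.9.1, and ChIPseeker and FastQC are named in the submitters' processing notes. Whether the inputs were used, and how duplicate or multiply mapped reads were handled, are points not given in the sources used here. The deposited lists were each made from 1 library and give, per peak, a score, a fold (a ratio), −log10 p, −log10 q and the summit. The lowest deposited −log10 q is 1.30 in both lists, a q-value of 0.05. Read totals are unknown.

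Members were taken by position with an overlap of 1 bp. Pileup and background were solved from the authors' fold (pseudocount 1) and −log10 p with the Poisson upper tail, to within 0.1%. This gave 99.96% of regions in each list and left out 1 member. Genes and gene-free stretches come from RefSeq's GRCh38.p14 table. For periods, separations were counted, smoothed and Fourier-transformed. The solution and the period scan were tested on simulated data. Simulated positions either all followed a planted period or had no order and no minimum gap. Whether the scan finds a weaker order was not tested. Named regions are, per span, the highest fold, the widest, the first and the last, the nearest on each side and the longest void. Members, lists and analyses were chosen with earlier results of these data known. Intervals cover counting error only. Python 3.11.15, numpy 2.4.6, pandas 2.3.3 and scipy 1.17.1 were used.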

Additional observations from a re-analysis of the deposited data

How the results depend on the processing

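Counts and lengths are taken as stable within 1.5 times, and medians and shares within their exact 95% interval. The knockdown count stayed at 0 with spans lengthened by 100 kb, where the nearest knockdown region lay 103514 bp from a span. It was also 0 at each stricter threshold, by summit position and with spans shortened by 100 kb. These last settings can only lower a count, so they could not have changed a count of 0. The share of members overlapped by a knockdown region was 0 at each stricter threshold, by summit position and at 50% of both regions. It was also 0 in the dense blocks and without chromosome 17 or 18. Each of these settings takes a part of the members or a stricter overlap, so none could have changed a share of 0. At a −log10 q of at least 5, 5150 members remained, with a median width of 618.5 bp, distance of 2186.5 bp, fold of 7.51 and pileup of 13. At 10 there were 2297 members covering 2040 kb, with medians of 712 and 3311 bp. At a fold of at least 5, the medians were 586 and 2001 bp. From end to next start the median distance was 905 bp. Weighting chromosomes equally gave a fold of 6.15. Without chromosome 18, chosen after seeing the data, the members covered 3645 kb, with medians of 490 bp (width), 1696 bp (distance), 6.62 (fold) and 12 (pileup). Joining rows closer than 200 bp changed nothing, since no gap is that small. Distances against the satellite repeat length were not run, because the sequence of the spans was not used here. Low pileups limit chromosomes 11 and 17 most.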
